A study of Mus musculus with 6 samples.

Results

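The genes described here are 10 genes of the intestinal Paneth cell that do not encode alpha-defensins: Lyz1, Ang4, Mmp7, Itln1, Mptx1, Mptx2, Clps, Pnliprp2, Habp2 and Fgfrl1. They were picked by gene symbol from a table of 18448 mouse genes, each symbol matched 1 row, and all 10 passed the filter on low counts that left 14544 genes for testing. RNA levels came from sequencing of poly(A) RNA from jejunal organoids, epithelial cultures grown from the mouse small intestine. Cultures of both groups were of the C57BL/6 strain and carried Villin-CreERT2, a Cre switched on by hydroxytamoxifen, with both Hnf4a copies floxed. Both also received recombinant mouse Wnt3A at 200 ng/mL, and RNA was taken on day 2 after the last passage. The 4OHT group (3 libraries) received 0.5 µM hydroxytamoxifen for 24 hours to delete Hnf4a, and the DMSO group (3 libraries) received the vehicle. The villin promoter drives Cre in the intestinal epithelium, and no group without Wnt3A was analysed here. Age and the number of source animals were not given in the sources used here. The labels do not say that replicates were separate cultures or animals, and the spread that the p-values rest on may therefore be technical.

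Paneth cells sit at the base of small intestinal crypts and release granules of antimicrobial proteins into the crypt lumen. Wnt signals promote their differentiation and they in turn supply Wnt3 to neighbouring stem cells. HNF4A is a nuclear receptor of the intestinal epithelium, and the series title places it upstream of Wnt3 and of Paneth cell fate. Of the 10 genes, Lyz1, Ang4, Itln1, Mptx1 and Mptx2 encode antimicrobial or microbe-binding proteins. Mmp7 encodes the protease that activates mouse alpha-defensin precursors, Clps and Pnliprp2 encode proteins of lipid digestion, and Habp2 encodes a secreted serine protease. Fgfrl1 differs from the rest, since it encodes a membrane receptor of the fibroblast growth factor receptor family that has no tyrosine kinase domain.

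Hnf4a, the targeted gene, was at 436, 424 and 482 CPM in 4OHT replicates 1 to 3, against 839.8, 846 and 1021 CPM in DMSO replicates 1 to 3 (log2 fold change -1.01, SE 0.0997, adjusted p = 0.0124). CPM are counts scaled to the size of each library, and the adjusted p-values are from edgeR's quasi-likelihood test with Benjamini-Hochberg adjustment over all tested genes unless another tool is named. Library totals were 31537100 to 40276242 counts. DMSO replicate 3 stood apart from the other DMSO libraries: in chi-square comparisons of counts over genes, the statistic divided by its degrees of freedom was 64.2 and 58.5 against them and 7.86 between the other two. Results that rest on replicate 3 are given with and without it.

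Several of the 10 genes belong to families of close paralogs, to which the same read can map, so the start of the coding sequence is shown for the 2 pairs of copies with the most alike members. Each sequence runs 5′ to 3′ from the start codon over coding bases 1 to 120, read from transcripts of GENCODE mouse release M21 (GRCm38). Capitals mark the bases that differ between the copies of a pair.
Lyz1: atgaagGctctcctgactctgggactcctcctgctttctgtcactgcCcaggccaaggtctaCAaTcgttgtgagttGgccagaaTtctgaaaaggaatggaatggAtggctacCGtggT
Lyz2: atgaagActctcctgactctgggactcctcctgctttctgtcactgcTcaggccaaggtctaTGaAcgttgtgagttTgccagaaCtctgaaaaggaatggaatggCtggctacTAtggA
Mptx1: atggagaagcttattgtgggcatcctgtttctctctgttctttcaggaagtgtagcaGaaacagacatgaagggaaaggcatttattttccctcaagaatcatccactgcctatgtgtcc
Mptx2: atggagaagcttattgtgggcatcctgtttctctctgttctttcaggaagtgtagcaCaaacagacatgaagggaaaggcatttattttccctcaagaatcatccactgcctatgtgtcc
Lyz1 and Lyz2, the second lysozyme gene of the mouse and the one used by macrophages, differed at 22 of 444 coding bases, with 11 of them in the stretch shown. Their longest identical run was 118 bases. Mptx1 and Mptx2 differed at 53 of 657 coding bases, but at only 1 in the stretch shown, and shared an identical run of 109 bases. Ang4 was 85.4% identical over aligned coding bases to Ang, 88% to Ang2, 88.7% to Ang5 and 86.8% to Ang6. Reads from a shared run cannot be assigned to a copy by sequence, and how they were counted is not given in the sources used here.

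The lysozyme signal was Lyz1 and almost no Lyz2. Lyz2 had 2, 2 and 5 counts in 4OHT replicates 1 to 3, against 3, 4 and 6 counts in DMSO replicates 1 to 3, too few to be tested. Its largest share of the counts on both genes was 0.0524% in 4OHT replicate 3 (95% Wilson interval 0.0224 to 0.123%, counting error only). Of the other angiogenin genes, Ang had 12.8 ± 0.904 CPM in 4OHT and 13.5 ± 0.993 CPM in DMSO (SD, n = 3 each), and Ang5 had at most 5 counts in any library of either group. Ang2, Ang6 and the intelectin gene Itlnb had no row under these symbols among the 18448 genes.

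Per length of transcript the 10 genes spanned a wide range, led by the lectin gene Itln1 in both groups. On the scale of CPM per kilobase of the longest annotated transcript, Itln1 was at 600.3 ± 21.2 in 4OHT and 578 ± 86.4 in DMSO (SD, n = 3 each). Below it in 4OHT came Ang4 (351 ± 44.3), Mmp7 (249 ± 23.3), Lyz1 (196 ± 15.1) and Pnliprp2 (67.0 ± 13.8). In DMSO the order was Ang4 (339 ± 21.5), Lyz1 (335 ± 41.2), Mmp7 (239.5 ± 49.8) and Pnliprp2 (87.8 ± 27.6). Lyz1 and Ang4 overlapped in DMSO, whereas the 3 Lyz1 values of 4OHT, 184 to 213, lay below the 3 Ang4 values, 300.2 to 381, and also below the 3 Mmp7 values, 229.6 to 275. The lower part of the order was the same in both groups: Mptx2, Clps, Habp2, Fgfrl1 and Mptx1. In 4OHT no neighbours in the order overlapped, while in DMSO Mptx2 overlapped Clps and Habp2 overlapped Fgfrl1. At the bottom, Mptx1 was at 4.45 ± 1.67 CPM per kilobase in 4OHT and 3.25 ± 3.78 in DMSO.

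**Figure D1:**
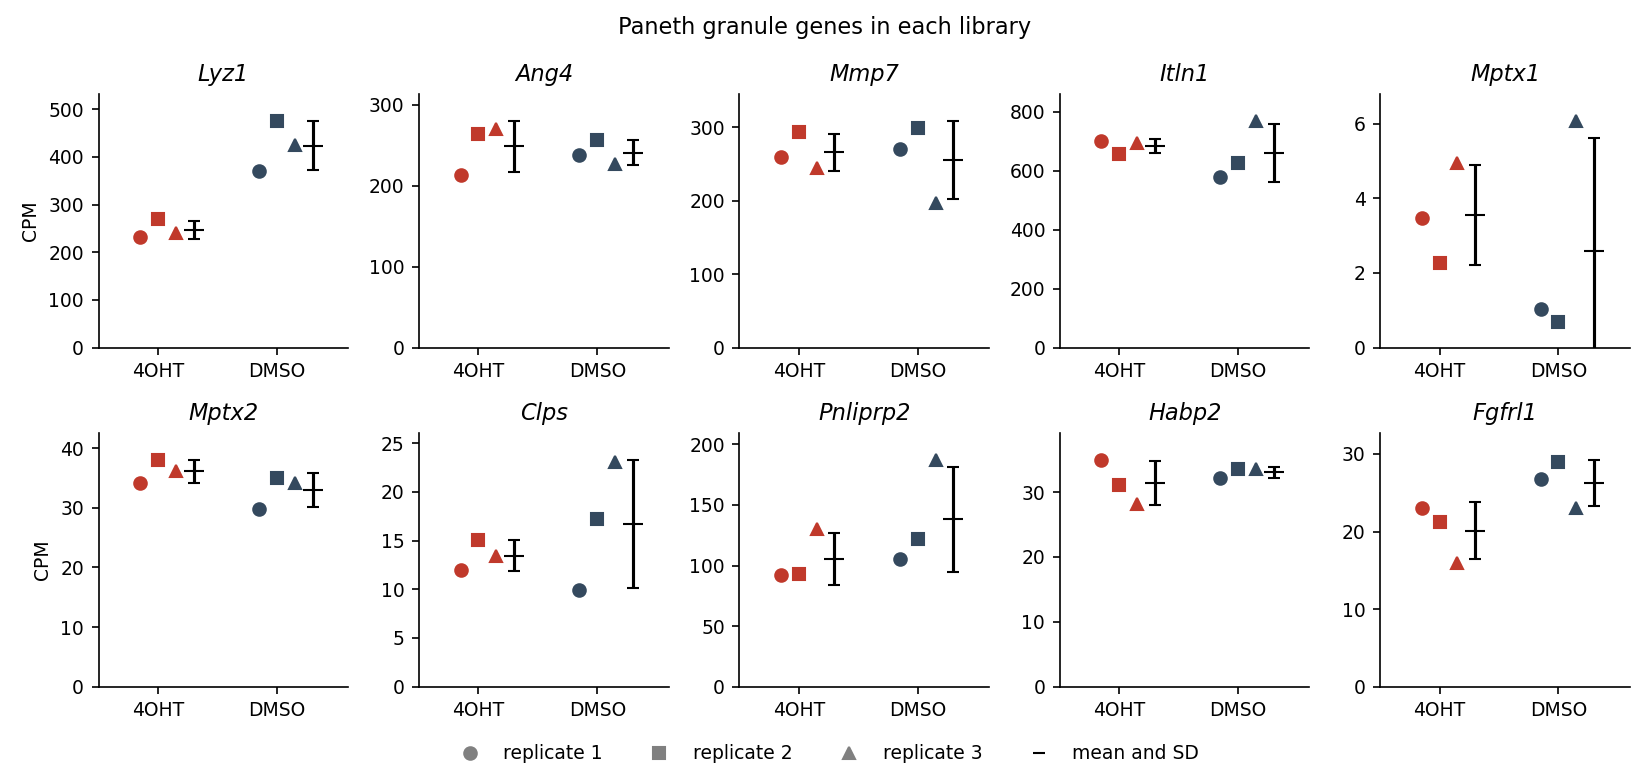
CPM of each of the 10 genes in every library (linear axes from 0), 4OHT in red left of DMSO in dark blue, with the mean and SD of 3 libraries beside the points. Lyz1 is the gene whose groups do not overlap, at 233 to 269 CPM in 4OHT and 371 to 475 CPM in DMSO, while Mptx1 spans 0.68 to 6.08 CPM within DMSO.

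The lysozyme gene fell after 4OHT and the other 9 genes did not pass the test. Lyz1 (ENSMUSG00000069515, chromosome 10 from 117287797 to 117292868, minus strand, GRCm38), whose product cleaves the peptidoglycan of bacterial cell walls, measured 233, 269 and 240.3 CPM in 4OHT replicates 1 to 3, against 371, 475 and 424 CPM in DMSO replicates 1 to 3. All 3 libraries of 4OHT lay below all 3 of DMSO. The means were 247 ± 19.1 CPM in 4OHT and 424 ± 52.1 CPM in DMSO (SD, n = 3 each), a level 0.584 times as high in 4OHT (log2 fold change -0.78, SE 0.105, 95% interval -1.02 to -0.53, adjusted p = 0.0318). Between libraries with the same replicate number the log2 difference was -0.67, -0.82 and -0.82. Here and below, pairing by replicate number was inferred from these same counts and is not stated by the labels. Of the 10 genes 1 was thus called, beside 0.908% of all tested genes. In the lower direction it was 1 of 10 beside 0.206%, and in the higher direction 0 of 10 beside 0.701%. DESeq2 also called 1 of the 10 genes, Lyz1, beside 4.94% of the genes it tested, and 1.76% in the lower direction. Groups that do not overlap, with 4OHT lower, occurred for 1 of the 10 genes and for 10.1% of all tested genes, and without overlap in either direction for 22.6%. At an unadjusted p under 0.05 there were 2 of the 10 genes, both lower. Of all 14544 tested genes, 15% had such a p in either direction, and 923 were lower with it. In bulk RNA, fewer Paneth cells and less Lyz1 RNA per cell cannot be told apart.

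The size of the Lyz1 difference depended little on which library was used, and its call did. Leaving out each library in turn gave log2 fold changes between -0.86 and -0.69. The call was kept without DMSO replicate 3 (adjusted p = 0.0243) and lost without any of the other 5 libraries (adjusted p = 0.0572 to 0.155), where each fit had 5 libraries. Calls were lost across the series in the same fits. Of all tested genes 30 were lower with all libraries, 87 without DMSO replicate 3, and 1 to 3 in the 5 fits that lost Lyz1. In the authors' deposited table Lyz1 has a log2 fold change of -0.777 with an adjusted p of 5.7e-07 from edgeR and 1.4e-05 from DESeq. For the other 9 genes the authors' deposited table gives adjusted p-values of at least 0.29 from edgeR and at least 0.38 from DESeq.

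Within each library Lyz1 was also compared with the other 9 genes, a ratio that no scaling of library size can move. The ratios were computed with the fall of Lyz1 known, so they describe it and do not support it. The log2 ratio of Lyz1 to Mptx2 was 2.77, 2.82 and 2.73 in 4OHT replicates 1 to 3, against 3.64, 3.76 and 3.64 in DMSO replicates 1 to 3. The mean difference of 4OHT minus DMSO was -0.91 against Mptx2, -0.85 against Mmp7, -0.83 against Itln1, -0.81 against Ang4 and -0.69 against Habp2. For these 5 genes the groups did not overlap. For Fgfrl1 (-0.37), Pnliprp2 (-0.41), Clps (-0.54) and Mptx1 (-1.84) the groups overlapped. In all 9 ratios the 4OHT library was lower than the DMSO library of the same replicate number in each of the 3 pairs. An exact two-sided permutation test of 3 libraries against 3 cannot give a p below 0.1, so no single ratio could pass.

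**Figure D2:**
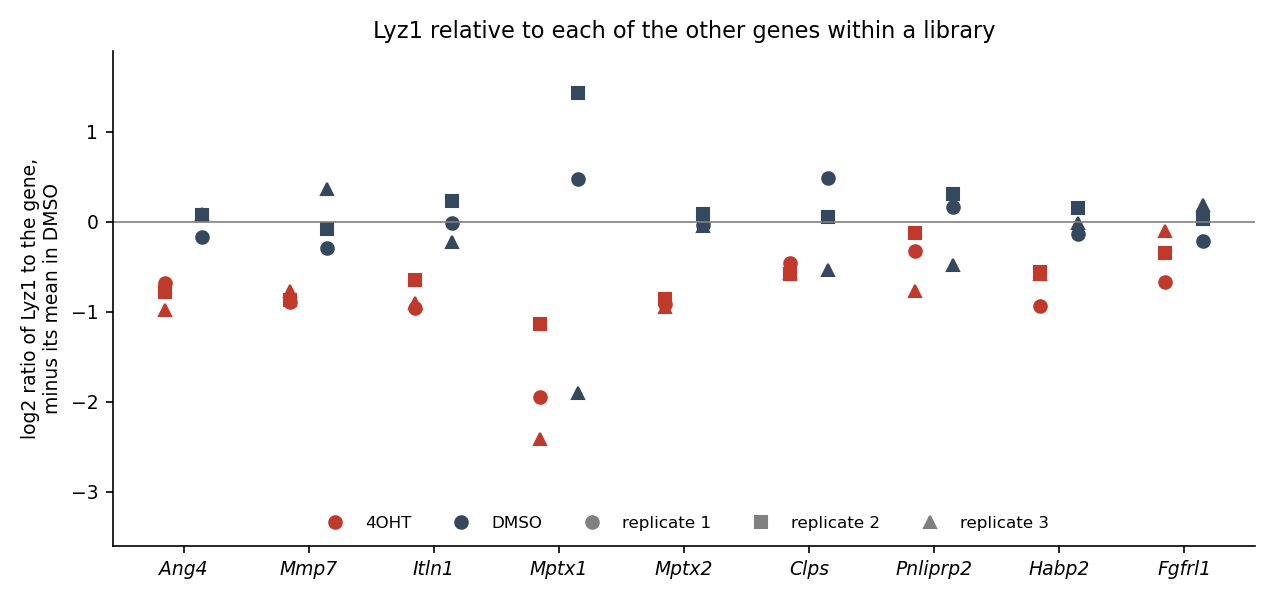
The log2 ratio of Lyz1 to each of the other 9 genes in every library, minus the mean of that ratio in DMSO, with 4OHT in red left of DMSO in dark blue and marker shapes for replicates. The 4OHT points lie below all DMSO points for Ang4, Mmp7, Itln1, Mptx2 and Habp2.

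The most abundant antimicrobial and processing genes besides Lyz1 were at similar measured levels in both groups, with intervals that bound the difference. Ang4 (chromosome 14 from 51763878 to 51773590), a microbicidal ribonuclease of the angiogenin family, measured 213, 263 and 270.4 CPM in 4OHT replicates 1 to 3, against 238, 257 and 227 CPM in DMSO replicates 1 to 3. The 2 groups overlapped, with the lowest value in 4OHT replicate 1 and the highest in 4OHT replicate 3 (log2 fold change 0.05, SE 0.103, 95% interval -0.19 to 0.29, adjusted p = 0.871). Itln1 (chromosome 1 from 171518122 to 171535294), an intelectin that binds microbial glycans and is also made by goblet cells, measured 702, 657 and 696 CPM in 4OHT, against 581, 628 and 770.3 CPM in DMSO. The DMSO libraries spanned the 4OHT libraries (0.05, SE 0.110, 95% interval -0.20 to 0.31, adjusted p = 0.864).

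Mmp7 (chromosome 9 from 7692090 to 7699585), the matrilysin gene, measured 259, 294 and 245 CPM in 4OHT replicates 1 to 3, against 271, 299.8 and 197 CPM in DMSO replicates 1 to 3. DMSO replicate 3 was the lowest of the 6 libraries and the other 5 lay within 245 to 299.8 CPM. The log2 fold change was 0.06 (SE 0.155, 95% interval -0.31 to 0.42, adjusted p = 0.902), and without DMSO replicate 3 it was -0.11 (adjusted p = 0.612). The gene AV064505 overlaps Mmp7 on the other strand and had 18 to 29 counts in 4OHT and 11 to 39 counts in DMSO, beside 9057 to 10451 counts of Mmp7 in 4OHT and 6053 to 11014 in DMSO. For Ang4, Itln1 and Mmp7 the intervals leave out a fall as large as that of Lyz1.

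The 2 mucosal pentraxin genes, which encode secreted proteins of the pentraxin family, differed in level and in spread. Mptx2 (chromosome 1 from 173274382 to 173277777) measured 34.2, 38.0 and 36.2 CPM in 4OHT replicates 1 to 3, against 29.7, 35.1 and 34.1 CPM in DMSO replicates 1 to 3. It was slightly higher in 4OHT in all 3 pairs, and the groups overlapped (log2 fold change 0.13, SE 0.0835, 95% interval -0.06 to 0.33, adjusted p = 0.512). With the replicate number in the model as a block, the interval was 0.0034 to 0.27 (adjusted p = 0.188). Mptx1 (chromosome 1 from 174330518 to 174332873) had 121, 81 and 196 counts in 4OHT replicates 1 to 3, against 37, 25 and 187 counts in DMSO replicates 1 to 3. Replicate 3 was the highest library of each group, and in DMSO it held 6.08 CPM beside 1.03 and 0.68 CPM in replicates 1 and 2.

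The Mptx1 result therefore rested on DMSO replicate 3. With all libraries its log2 fold change was 0.48 (SE 0.770, 95% interval -1.34 to 2.30, adjusted p = 0.820). Without DMSO replicate 3 Mptx1 was higher in 4OHT (log2 fold change 2.05, SE 0.389, adjusted p = 0.0496), and without replicate 3 of both groups it was also higher (1.74, SE 0.313, adjusted p = 0.0337). In those fits 1 of the 10 genes was higher, beside 1.71% and 2.59% of all tested genes, and 1 was lower, Lyz1, beside 0.587% and 1.51%. Mptx1 made up 9.2%, 5.64% and 12% of the counts on both pentraxin genes in 4OHT replicates 1 to 3, against 3.34%, 1.9% and 15.1% in DMSO replicates 1 to 3. The 95% Wilson intervals of these shares reach from 4.56 to 6.96% in 4OHT replicate 2 and from 13.2 to 17.2% in DMSO replicate 3, for counting error only. With the counts of both genes summed, the log2 fold change was 0.16 (adjusted p = 0.523).

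The 2 genes of lipid digestion were highest in DMSO replicate 3. Pnliprp2 (chromosome 19 from 58759719 to 58777534), a lipase related to pancreatic lipase, measured 92.5, 93.3 and 130.4 CPM in 4OHT replicates 1 to 3, against 105, 122 and 187 CPM in DMSO replicates 1 to 3. Replicate 3 was the highest library of each group, and 4OHT was lower in all 3 pairs, by 0.18, 0.38 and 0.52 on the log2 scale. Without the replicate number in the model Pnliprp2 did not pass (log2 fold change -0.39, SE 0.234, 95% interval -0.94 to 0.16, adjusted p = 0.494), and with the replicate block it fell (-0.37, SE 0.0699, adjusted p = 0.0404). In fits without the block, its log2 fold change was -0.11 without DMSO replicate 3 (adjusted p = 0.784). It was -0.30 without replicate 3 of both groups (SE 0.0761, adjusted p = 0.0898). The block was not fitted without replicate 3.

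Clps (chromosome 17 from 28558149 to 28560766), which encodes colipase, the cofactor of pancreatic lipase, measured 12.0, 15.1 and 13.4 CPM in 4OHT, against 9.92, 17.2 and 23.1 CPM in DMSO. The 3 DMSO values lay on both sides of the 4OHT values (log2 fold change -0.31, SE 0.280, 95% interval -0.97 to 0.35, adjusted p = 0.661), and the log2 fold change was -0.016 without DMSO replicate 3 (adjusted p = 0.983). Of genes of the exocrine pancreas, the lipase-related gene Pnliprp1 was at 1.51 ± 0.0466 CPM in 4OHT and 2.74 ± 1.01 CPM in DMSO (SD, n = 3 each; log2 fold change -0.85, adjusted p = 0.240). Ctrb1, a chymotrypsinogen, was at 4.16 CPM in DMSO replicate 3 and at 0.54 to 1.13 CPM in the other 5 libraries, and its part in the Clps and Pnliprp2 values was not tested.

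Habp2 (chromosome 19 from 56287137 to 56320822), which encodes a hyaluronan-binding serine protease, was at close levels in all 6 libraries. It measured 35.0, 31.0 and 28.1 CPM in 4OHT replicates 1 to 3, against 32.1, 33.5 and 33.6 CPM in DMSO replicates 1 to 3 (log2 fold change -0.08, SE 0.0891, 95% interval -0.29 to 0.14, adjusted p = 0.747). The 4OHT libraries lay on both sides of the DMSO libraries. Nrap overlaps Habp2 on the other strand and had 66 to 107 counts in 4OHT and 61 to 105 counts in DMSO, beside 1105 to 1222 counts of Habp2 in 4OHT and 1033 to 1231 in DMSO.

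The receptor gene Fgfrl1 (chromosome 5 from 108692382 to 108706924) measured 23.1, 21.2 and 16.0 CPM in 4OHT replicates 1 to 3, against 26.8, 29.0 and 23.1 CPM in DMSO replicates 1 to 3. The groups met at 23.1 CPM, and 4OHT was lower in all 3 pairs by 0.21, 0.44 and 0.52 on the log2 scale. Fgfrl1 did not pass without the block (log2 fold change -0.39, SE 0.151, 95% interval -0.75 to -0.03, unadjusted p = 0.0372, adjusted p = 0.296), and fell with it (-0.40, SE 0.0793, adjusted p = 0.0446). With the replicate block 3 of the 10 genes fell, Lyz1, Pnliprp2 and Fgfrl1, and 0 rose, beside 3% of tested genes that fell, 3.99% that rose and 6.99% in all. A lower value in all 3 pairs was also found for 24.5% of all tested genes.

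**Figure D3:**
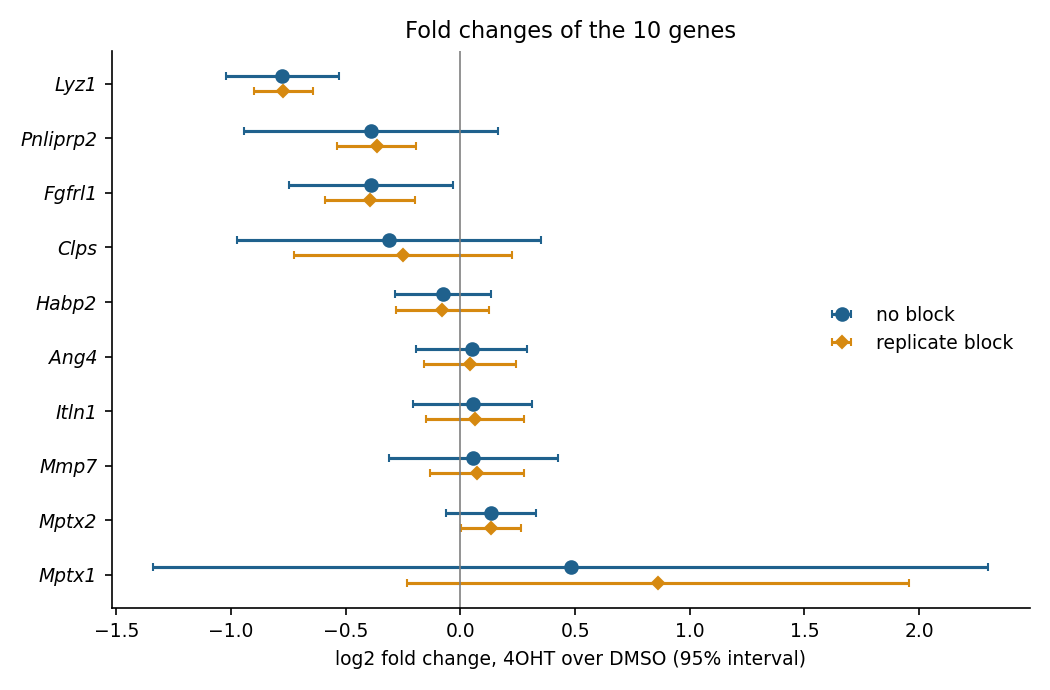
Log2 fold change of 4OHT over DMSO with its 95% interval for each of the 10 genes, without a block (circles) and with the replicate number as a block (diamonds). The intervals of Lyz1 and Fgfrl1 lie below 0 in both fits, and that of Pnliprp2 only with the block. The interval of Mptx2 lies above 0 only with the block, and that of Mptx1 reaches from -1.34 to 2.30 without it.

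Among themselves the 10 genes split evenly by sign, 5 with a negative and 5 with a positive log2 fold change, with a median of -0.01 beside -0.0041 for all tested genes. The summed level of all 10 genes was 1607 to 1684 CPM in 4OHT and 1666 to 1925 CPM in DMSO. Without Lyz1 the sum was 1374 to 1440.4 CPM in 4OHT, inside the 1294 to 1501 CPM of DMSO. Replicate 3 was set against the mean log2 level of replicates 1 and 2 of the same group. The difference was 0.71 in 4OHT and 2.29 in DMSO for Mptx1, and 0.49 in 4OHT and 0.72 in DMSO for Pnliprp2. It was -0.01 and 0.80 for Clps, and -0.17 and -0.53 for Mmp7, in the same order of groups. For Lyz1 it was -0.06 in 4OHT and 0.01 in DMSO.

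**Figure D4:**
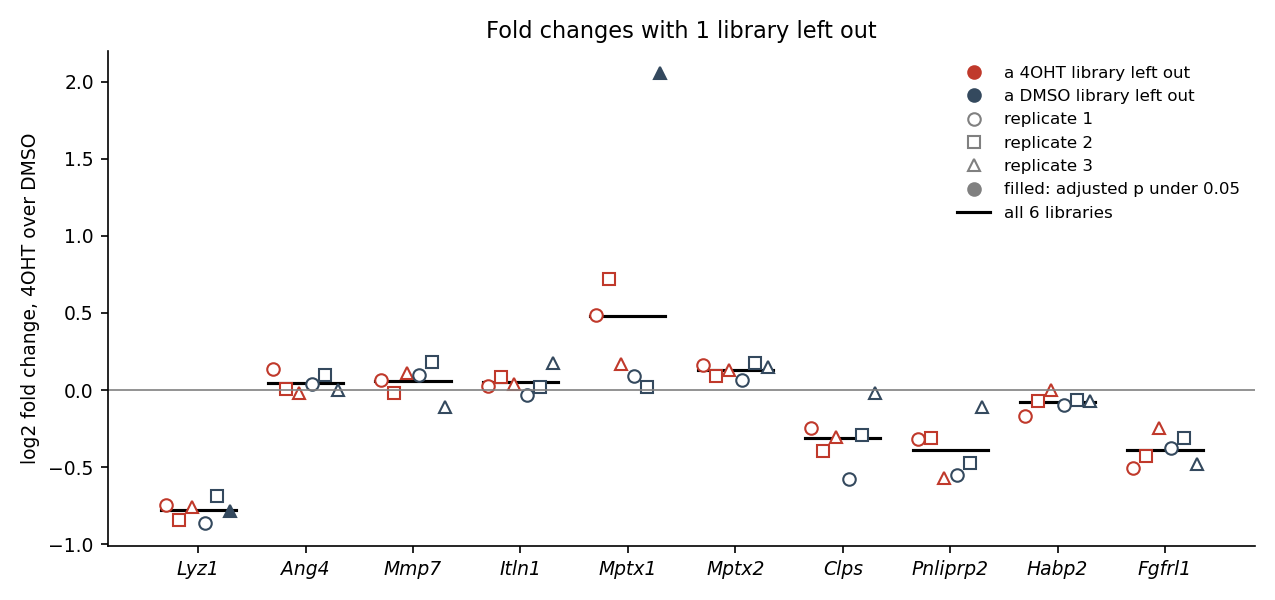
Log2 fold change of 4OHT over DMSO for each of the 10 genes with all 6 libraries (black line) and with 1 library left out (points, coloured by the group of the library left out, filled where adjusted p was under 0.05). Lyz1 stays between -0.86 and -0.69, and Mptx1 moves to 2.05 without DMSO replicate 3.

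Other genes of Paneth cells and secretory epithelium were read from lists made with earlier results of these data known. Of 16 further Paneth and secreted genes 13 had rows and 11 were tested, with a median log2 fold change of -0.01. Nupr1, a stress-response gene, rose to 29.6 ± 3.96 CPM in 4OHT, against 12.7 ± 0.541 CPM in DMSO (log2 fold change 1.22, SE 0.111, adjusted p = 0.00944), and 0 of the 11 fell by edgeR or limma-voom and 1 by DESeq2. The Nupr1 call was lost without DMSO replicate 1, DMSO replicate 2 or 4OHT replicate 3. In those fits 4, 3 and 10 of all tested genes were higher, against 102 with all libraries. At an unadjusted p under 0.05, 1 of the 11 was higher and 2 were lower. Of all 14544 tested genes, 1258 were higher and 923 lower at that p, and with the replicate block 3.99% rose and 3% fell. DESeq2 called 3.19% of the genes it tested higher and 1.76% lower. With the replicate block Guca2a, which encodes guanylin, also rose (0.30, adjusted p = 0.0446), and the ribonuclease gene Rnase1 fell (-0.74, adjusted p = 0.0452). The antimicrobial lectin gene Reg3g was at 182 ± 97.3 CPM in 4OHT and 127 ± 59 CPM in DMSO (0.52, adjusted p = 0.645), and Reg3b at 28.0 ± 10.3 and 39.6 ± 4.93 CPM in the same order (-0.50, adjusted p = 0.404).

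Paneth transcription factors and granule machinery did not pass the test. Of 17 tested genes edgeR and limma-voom called 0 and DESeq2 called 1 higher. Unadjusted p-values under 0.05 were seen for 2 higher and 2 lower genes, beside 1258 higher and 923 lower of all 14544 tested genes. The median log2 fold change of the 17 genes was 0.03. Sox9, a transcription factor needed for Paneth cells, was at 118 ± 29.4 CPM in 4OHT and 127 ± 35.4 CPM in DMSO (-0.11, adjusted p = 0.882), and Atoh1, which specifies secretory cells, at 15.1 ± 1.05 and 14.2 ± 3.77 CPM in the same order (0.09, adjusted p = 0.854). Rab27a, a GTPase of granule release, was at 22.9 ± 3.2 CPM in 4OHT and 13.7 ± 1.57 CPM in DMSO (0.74, SE 0.130, adjusted p = 0.0608). Of the 2 lower genes, Dll4, which encodes a Notch ligand, was at 13.5 ± 0.648 CPM in 4OHT and 16.5 ± 0.530 CPM in DMSO (-0.29, adjusted p = 0.150). The zinc transporter gene Slc30a2 was at 0.683 ± 0.377 CPM in 4OHT and 1.33 ± 0.230 CPM in DMSO (-0.96, adjusted p = 0.296). With the replicate block Rab27a rose (adjusted p = 0.00863), as did Ern2, a stress sensor of mucus-secreting cells (0.59, adjusted p = 0.0236).

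Goblet cell genes, which matter here because goblet cells share secretory genes with Paneth cells, were higher in 4OHT in measured level without passing the test. All 7 tested goblet genes had a positive log2 fold change (median 0.81), 0 were called by edgeR or limma-voom and 2 by DESeq2, and 3 were higher at an unadjusted p under 0.05. Of all 14544 tested genes, 7149 had a positive log2 fold change and 1258 were higher at an unadjusted p under 0.05. DESeq2 called 3.19% of the genes it tested higher. With the replicate block 6 of the 7 goblet genes rose, beside 3.99% of all tested genes, led by Zg16 (1.65, adjusted p = 0.00192) and Clca1 (1.31, adjusted p = 0.00581). Their summed level was 3619 to 6131 CPM in 4OHT and 2229 to 4201 CPM in DMSO, highest in replicate 3 of each group. Its part in the level of Itln1 or of the other 9 genes was not tested.

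Enterocyte genes had lower measured levels in 4OHT, stem cell genes less evenly so, and macrophage markers ranged widely in level. All 8 enterocyte genes had a negative log2 fold change (median -0.61), with 0 called by edgeR or limma-voom, 2 lower by DESeq2, 3 lower at an unadjusted p under 0.05 and 2 lower with the block. Of all 14544 tested genes, 7395 had a negative log2 fold change and 923 were lower at an unadjusted p under 0.05. DESeq2 called 1.76% of the genes it tested lower, and the block 3%. Apoa1, an apolipoprotein of lipid export, was at 423 ± 90.0 CPM in 4OHT and 719 ± 167 CPM in DMSO (-0.77, adjusted p = 0.152) and fell with the replicate block (adjusted p = 0.00581), as did the fatty acid binding protein gene Fabp2 (-0.36, adjusted p = 0.0238). The summed enterocyte level was 1825 to 3127 CPM in 4OHT and 2674 to 5727 CPM in DMSO, highest in replicate 3 of each group, as for Pnliprp2, and its part in the Pnliprp2 values was not tested. All 6 stem cell genes had a negative log2 fold change (median -0.35). Lgr5, a stem cell marker, was at 58.0 ± 23.3 CPM in 4OHT and 60.3 ± 15.1 CPM in DMSO, with overlapping groups (-0.06, adjusted p = 0.952). Of the 6 genes 1 was called lower, beside 0.206% of all tested genes. That gene, Msi1, fell to 19.5 ± 4.25 CPM in 4OHT, against 46.7 ± 9.1 CPM in DMSO (-1.26, adjusted p = 0.0455). This call was lost with library totals, with the filter at 10 CPM, with robust dispersions and in 5 of the 6 fits that left out 1 library, all but the fit without DMSO replicate 3. In those 5 fits 1 to 3 of all tested genes were lower, against 30 with all libraries. Of 8 macrophage genes 5 were tested, edgeR and limma-voom called 0 of them and DESeq2 called 2 higher, and 2 were higher at an unadjusted p under 0.05, Mrc1 (0.63, adjusted p = 0.123) and Cd68 (0.62, adjusted p = 0.150). DESeq2 called 3.19% of the genes it tested higher, and 1258 of all 14544 tested genes were higher at an unadjusted p under 0.05. The highest macrophage list gene was Cd14, at 14.8 ± 0.987 CPM in 4OHT and 15.3 ± 1.33 CPM in DMSO (-0.05, adjusted p = 0.845). Mrc1 averaged 12.5 CPM in 4OHT and 8.08 CPM in DMSO, and the leukocyte gene Ptprc 0.0985 CPM in 4OHT and 0.0489 CPM in DMSO.

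**Figure D5:**
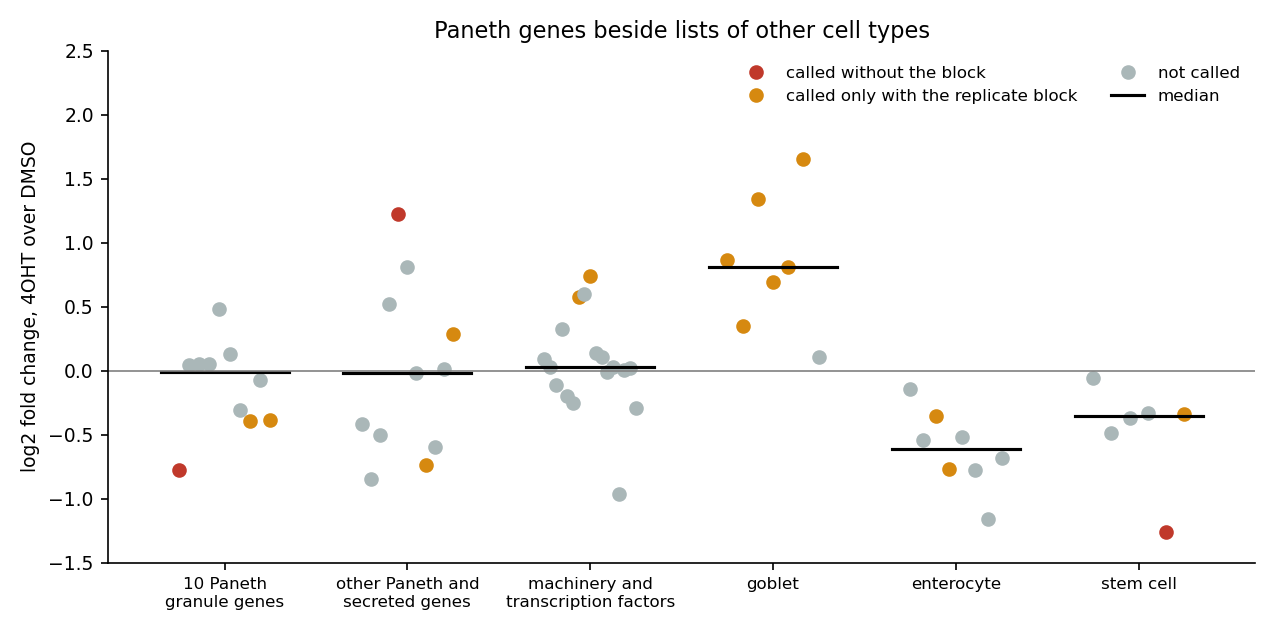
Log2 fold change of 4OHT over DMSO for the 10 genes described here and for tested genes of 5 lists (points), with the median of each as a line. Red points were called without the block, orange points only with the replicate block. The 10 genes have a median of -0.01, while all 7 goblet genes lie above 0 and all 8 enterocyte genes below it.

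RefSeq promoter windows (GRCm38.p6), 250 bases before to 50 after an annotated start, were held for 9 of the 10 genes, all but Clps, and were searched on both strands for short motifs. The HNF4 motif CAAAGTCCA was in 0.47% of all 32851 windows and in those of 0 of the 9 genes. The motifs CTTTGAT and CTTTGAA of TCF/LEF, the transcription factors of Wnt signalling, share their first 6 letters and were in 3.73% and 5.14% of windows, and 8.65% held either. CTTTGAT was in both windows of Mmp7, on the other strand at bases 5 to 11 after the first start, which are bases -247 to -241 before the second. CTTTGAA was in the window of Mptx1, at bases -208 to -202. The 250 bases before the start of Lyz1 (chr10:117292869-117293118, minus strand), shown because Lyz1 is the gene that fell, held none of these motifs; that says only that these letters are not in this window.
Lyz1 promoter: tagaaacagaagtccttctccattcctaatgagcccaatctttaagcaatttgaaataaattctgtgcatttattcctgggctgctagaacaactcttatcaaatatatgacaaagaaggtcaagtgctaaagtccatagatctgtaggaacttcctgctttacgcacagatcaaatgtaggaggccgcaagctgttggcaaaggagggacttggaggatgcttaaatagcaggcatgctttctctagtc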

How the data were processed

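Per the labels' protocols, 250 ng of total RNA went into poly(A) selection and directional library preparation. STAR 2.4.0f1, bcl2fastq 1.8.4 and the build GRCm38 are named, per the submitters' processing notes, and the counting program and its strand setting are not given in the sources used here. The authors deposited raw counts per gene, which were used for every test, and every gene in the table has at least 10 counts in total. The deposited normalised values are a score per gene and library, rounded by the authors to whole numbers, and were not used. The log2 fold changes and the p-values deposited by the authors, from DESeq and edgeR per the file headers, were only set beside the results.

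The tests used edgeR 4.0.16 under R 4.3.3, with filterByExpr, TMM scaling, and the quasi-likelihood F test of 4OHT against DMSO, two-sided, called at an adjusted p under 0.05. CPM use TMM-scaled library sizes; pair differences and replicate 3 differences are of log2(CPM + 0.5). SE and 95% intervals come from the same fit. Depth per library was 31537100 to 40276242 counts. DESeq2 1.42.0 and limma 3.58.1 (voom) were alternatives, with other scalings, filters, left-out libraries, summed copies and the replicate number as a block.

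Deviations from group means correlated at 0.359, 0.440 and 0.491 between libraries with the same number, and on that basis, which the labels do not state, same-numbered libraries were treated as pairs. Transcript lengths, positions and coding sequences were from GENCODE mouse release M21, in which 18351 of 18448 identifiers were found. Coding sequences were aligned with Biopython 1.88. Named were all 10 genes, the targeted gene, near copies and, from each list, called genes and others of small p. Chosen after values were seen were Sox9, Atoh1, Lgr5, Guca2a, Ern2, Fabp2, Slc30a2, Cd14, Reg3g, Reg3b and Ptprc. The Ctrb1 values and the genes overlapping Mmp7 and Habp2 were also chosen after values were seen. The 10 genes and the lists were chosen with earlier results of these data known. The list of pancreatic genes is not reported here as a whole.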

Additional observations from a re-analysis of the deposited data

How the results depend on the processing

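Over 16 alternatives the log2 fold change of Lyz1 ran from -0.86 to -0.69, and its call was lost in the 5 fits named above (adjusted p = 0.0572 to 0.155). Leaving out 1 library gave 0 to 1 of the 10 genes lower (1 with all libraries) and 0 to 1 higher (0 with all). The count with replicate number as a block was 3 lower, where Pnliprp2 (-0.37) and Fgfrl1 (-0.40) passed; the block changed no other call among the 10 genes. Without replicate 3 of both groups 1 gene was higher, Mptx1 (1.74), which ran from 0.017 to 2.05 with 1 library left out.

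Signs of small differences changed. Ang4 was -0.063 without replicate 3 of both groups and -0.016 to 0.14 with 1 library left out. Mmp7 was -0.053 and -0.11 to 0.18 in the same fits, Itln1 ran from -0.030 to 0.17 with 1 library left out, and Habp2 was 0.0027 without replicate 3 of both groups. The cause was not tested.

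Of all tested genes 102 were higher and 30 lower. The filter at 10 CPM gave 32 and 17 (fewer genes were tested), DESeq2 474 and 261, the replicate block 580 and 437, the fit without replicate 3 of both groups 379 and 222, and 1 library left out 3 to 253 and 1 to 87, most without DMSO replicate 3. Among the 11 further Paneth and secreted genes 1 was higher, with 0 to 1 when 1 library was left out and 2 with the block; 0 were lower, beside 1 by DESeq2, 1 with the block and 2 without replicate 3 of both groups. Granule machinery had 0 higher, 1 with library totals, 1 by DESeq2, 2 with the block, 2 without replicate 3 of both groups and 0 to 2 with 1 library left out. Goblet genes had 0 higher, 2 by DESeq2, 6 with the block, 6 without replicate 3 of both groups and 0 to 5 with 1 library left out. DESeq2 called 2 macrophage genes higher and 2 enterocyte genes lower, and the block called 2 enterocyte genes lower. Without the block, edgeR called 0 enterocyte genes lower with all libraries, without DMSO replicate 3 and without replicate 3 of both groups. DESeq2 and the block were not fitted without replicate 3. Of stem cell genes 1 was lower, 0 with library totals, 0 with the filter at 10 CPM, 0 with robust dispersions, 2 with the block, 3 without replicate 3 of both groups and 0 to 1 with 1 library left out. The filter at 10 CPM left Mptx1 untested, and the summed copies left Mptx2 with no row.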
